A study of Homo sapiens with 28 samples.

Results

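A set of 42 lysosomal genes, out of 22391 genes with an expression value, was followed through RNA-seq of MLL-rearranged leukemia cells in which the splicing factor MBNL1 had been knocked down. The members were taken from a list of lysosomal enzymes, membrane proteins and their regulators by Ensembl gene identifier. They comprised 10 proteases and carboxypeptidases, 11 glycosidases with the pseudogene GBAP1 counted among them, 8 sulfatases, lipid enzymes and activator proteins, 8 membrane and cholesterol transport proteins, 3 parts of the proton pump and the 2 transcription factors TFEB and TFE3.

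The 28 libraries fell into 9 groups, all of total RNA from cell lines carrying a lentiviral short hairpin RNA, either 1 of 2 hairpins against MBNL1 (numbers 64 and 65) or a non-targeting control hairpin, shNT. In MOLM13, an acute myeloid leukemia line with an MLL-AF9 fusion grown in RPMI medium with serum, a first set held 3 hairpin 64 and 3 shNT libraries taken after 72 h of puromycin selection, which the study calls day 4. A second MOLM13 set held 4 hairpin 65 and 3 shNT libraries, and a later set, labelled day 12, held 3 hairpin 64 and 3 shNT libraries. In MV4;11, a leukemia line with an MLL-AF4 fusion grown in IMDM with serum, 3 libraries each carried hairpin 64, hairpin 65 and shNT, and the same 3 shNT libraries served as controls for both hairpins. Each line was a single established cell line, every group including shNT carried an integrated lentivirus, and the time after infection of the hairpin 65 and MV4;11 libraries was not given in the sources used here. Day 12 was sequenced on another instrument than the rest, so day and platform cannot be told apart, and neither can line and medium. Only the day 12 libraries were described as biological triplicates, and for the other groups p-values measure the spread between libraries, which may be technical.

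Lysosomes break down proteins, glycans, sulfated sugars and lipids delivered by endocytosis, phagocytosis and autophagy, and their hydrolases work in the acid interior that a vacuolar proton pump maintains. TFEB and TFE3, helix-loop-helix transcription factors, bind E-box-like elements in the promoters of many lysosomal genes, and cells of the monocyte lineage are rich in lysosomal enzymes. MBNL1 binds YGCY sequences, where Y is C or U, in pre-mRNA and changes the use of nearby exons. It usually represses an exon when bound upstream of it and promotes it when bound downstream.

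The files gave no read totals, so the depth behind each value was unknown. MBNL1 itself was at 14.4% of the shNT mean on day 4, 16.7% on day 12, 16.6% and 53.3% in MV4;11 under hairpins 64 and 65, and 67.3% under hairpin 65 in MOLM13, where it did not pass the test. The third library of both day 4 groups stood apart: 34 of the 41 tested members were highest in the third of the shNT libraries, where 46.2% of all genes were, and 33 in the third of the hairpin 64 libraries, against 46.4%. The third MV4;11 shNT library was the highest of its group for 22 members, against 39.3% of all genes. The counts of calls without these libraries are given with the paired comparison. Of 8 myeloid leukemia markers, 6 to 8 averaged at least 1 RPKM in each group, and some myeloid and monocyte markers moved with the knockdown. On day 12 MPO, the granule myeloperoxidase, was at 75.7 RPKM against 7.22 (log2 change 3.22), CSF1R, the macrophage colony-stimulating factor receptor, at 21.2 against 11.0, and FLT3, a progenitor receptor kinase, at 107 against 187. In MV4;11 under hairpin 64 MPO was at 6.12 against 2.67 RPKM and CSF1R at 27.7 against 14.8, both called. Of the 6 monocyte and macrophage markers tested there, 2 had every hairpin 64 library above every shNT library and 2 every one below. The lower ones were ITGAM, at 8.029 against 11.71 RPKM, and MARCO, at 6.556 against 8.496, neither called. FLT3 was also lower there without a call, at 154.8 against 234.0 RPKM. On day 4 FLT3 was at 104 against 212 RPKM (log2 change -1.08). Of 6 monocyte and macrophage markers tested on day 4, 2 were called higher and 0 lower. The markers FCGR1A and MARCO were at 35.95 against 13.3 and 5.03 against 2.59 RPKM on day 4. MPO was at 83.7 against 12.7 RPKM on day 4, without a call. On day 12, 2 of the 6 tested monocyte and macrophage markers were called higher and 2 lower. ITGAM, an integrin of mature myeloid cells, was lower on day 12, at 4.71 against 17.0 RPKM. ITGAX, another of these markers, was at 8.37 against 14.98 RPKM on day 12, and FCGR1A was higher at 25.5 against 13.7. The summed level of the 13 monocyte and macrophage markers examined spanned 62.6 to 72.3 RPKM under hairpin 64 and 58.1 to 68.1 in shNT on day 12, and 88.1 to 174 against 45.2 to 157 RPKM on day 4. It was 95.2 to 99.3 under hairpin 64, 77.6 to 83.0 under hairpin 65 and 76.2 to 82.0 RPKM in shNT libraries of MV4;11, and 56.1 to 124 against 36.0 to 104 RPKM for hairpin 65 in MOLM13. In each group 6 to 7 of the 13 were under 0.1 RPKM, among them CD14, CD163, MRC1 and MSR1 in all groups. The 10 lymphoid and erythroid markers summed to 3.34 to 28.5 RPKM over all libraries. The part of these markers in the lysosomal values was not tested. In bulk RNA, fewer cells of a type and less RNA per cell cannot be told apart.

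Nearly the whole set was well expressed. RPKM, read counts scaled to transcript length and to the size of the library, averaged at least 1 over the groups for 41 of the 42 members, and the median member mean was 25.7 RPKM against 7.72 RPKM over the 9998 genes with a mean of at least 1. PSAP, the precursor of the saposins that activate sphingolipid hydrolases, had the highest mean at 343 RPKM. On day 4 it was at 185, 198 and 514 RPKM in shNT and 303, 308 and 816 RPKM under hairpin 64, and on day 12 at 288, 271 and 312 RPKM in shNT and 302, 310.5 and 267 RPKM under hairpin 64. In the second MOLM13 set it was at 194, 264 and 286 RPKM in shNT and 259.9, 208, 352 and 395 RPKM under hairpin 65. In MV4;11 it was 372, 399.9 and 376 RPKM in the shNT libraries, 474, 443 and 403 under hairpin 64 and 378, 351 and 330.0 under hairpin 65. The groups overlapped in all but the MV4;11 hairpin 64 comparison, where every knockdown library was above every shNT library. GRN, the growth factor progranulin that is cut into granulins in lysosomes, followed at a mean of 284 RPKM, then the aspartic protease CTSD at 174, the tetraspanin CD63 at 158 and the alpha-mannosidase MAN2B1 at 124 RPKM.

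At the other end, LGMN, the asparaginyl endopeptidase legumain, was close to 0. It was listed at 0.0247, 0.04995 and 0.0322 RPKM in the day 4 shNT, 0.00658, 0.0586 and 0.00658 in the day 4 hairpin 64, 0.0227, 0.00658 and 0.00658 in the second shNT and 0.0135, 0.00658, 0.00658 and 0.00658 RPKM in the hairpin 65 libraries of MOLM13. The day 12 values were 0.00658, 0.00658 and 0.00658 in shNT and 0.00658, 0.0209 and 0.00658 RPKM under hairpin 64, and the MV4;11 values 0.00658, 0.0857 and 0.0507 in shNT, 0.0167, 0.0275 and 0.0358 under hairpin 64 and 0.0760, 0.117 and 0.0530 RPKM under hairpin 65. The recurring lowest number is the bottom value of the gene in the table. LGMN passed no filter on low values and was the 1 member left untested. SMPD1, the acid sphingomyelinase, averaged 2.20 RPKM and NAGLU, a heparan sulfate glycosidase, 3.43 RPKM. By role, the median member mean was 42.8 RPKM for proteases, 32.3 for the proton pump, 29.9 for sulfatases and lipid enzymes, 25.1 for glycosidases, 14.5 for membrane and cholesterol transport proteins and 6.27 RPKM for the transcription factors.

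Members were called when a limma test on log2(RPKM + 1) gave an unadjusted p of at most 0.01 and a difference of at least 1.5-fold, the rule of the study. Under hairpin 64 a handful of members rose and none fell by this rule. On day 4, 4 of 41 tested members rose and 0 fell, where 1.33% of all genes tested rose and 1.09% fell. On day 12, 5 rose and 0 fell, against 3.27% and 2.25% of all genes. In MV4;11, hairpin 64 gave 2 higher and 0 lower, against 3.89% and 2.62%, and hairpin 65 gave 1 higher and 0 lower, against 1.78% and 1.85%. Hairpin 65 in MOLM13 gave 0 in either direction, against 1.76% higher and 1.48% lower of all genes, and 3 members were under an unadjusted p of 0.05 by limma, the only tool run. The share of all genes under that p was not counted in this or any other comparison.

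Across the comparisons, 8 members were called at least once, 4 of them in 2 comparisons. Of 11035 genes tested at least once, 14.1% were called at least once and 4.11% in at least 2 comparisons. The other 33 tested members were called in none, and LGMN was untested. In the unpaired fit the calls on day 4 and under hairpin 65 in MV4;11 did not pass an adjusted p of 0.05, whose lowest values over the members were 0.185 and 0.0544 by limma. The 5 calls of day 12 and the 2 calls of hairpin 64 in MV4;11 did.

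Counting called and uncalled members, most lay above 0 in each comparison, as did most genes outside day 4. The median log2 change of the members was 0.29 on day 4, with 38 of 41 above 0, where the median of all genes tested was 0.00. It was 0.15 against 0.04 on day 12, 0.17 against 0.01 for hairpin 64 in MV4;11, 0.12 against 0.05 for hairpin 65 in MOLM13, and 0.06 against 0.06 for hairpin 65 in MV4;11. Above 0 were 29 members on day 12 (5870 of 10094 genes) and 27 under hairpin 65 in MOLM13 (5862 of 10156). In MV4;11 there were 23 under hairpin 64 (5241 of 10177 genes) and 26 under hairpin 65 (6050 of 10197). Every knockdown library was above every shNT library for 10 members on day 4 (9.72% of all genes), 23 on day 12 (35.8%), 17 under hairpin 64 in MV4;11 (20.6%), 7 under hairpin 65 in MV4;11 (16.2%) and 4 under hairpin 65 in MOLM13 (11.7%). The member share under hairpin 65 was thus close to that of all genes in both lines. Fully below the shNT libraries were 0 members on day 4 (8.24% of all genes), 5 on day 12 (23.7%), 7 and 6 in MV4;11 under hairpins 64 and 65 (17.5% and 9.89%), and 0 under hairpin 65 in MOLM13 (5.75%). The heat map of the changes shows the calls lying in few rows: ATP6V0D1, GLB1 and GM2A in the day 4 and day 12 columns and CTSD in the day 12 and MV4;11 hairpin 64 columns.

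**Figure D1:**
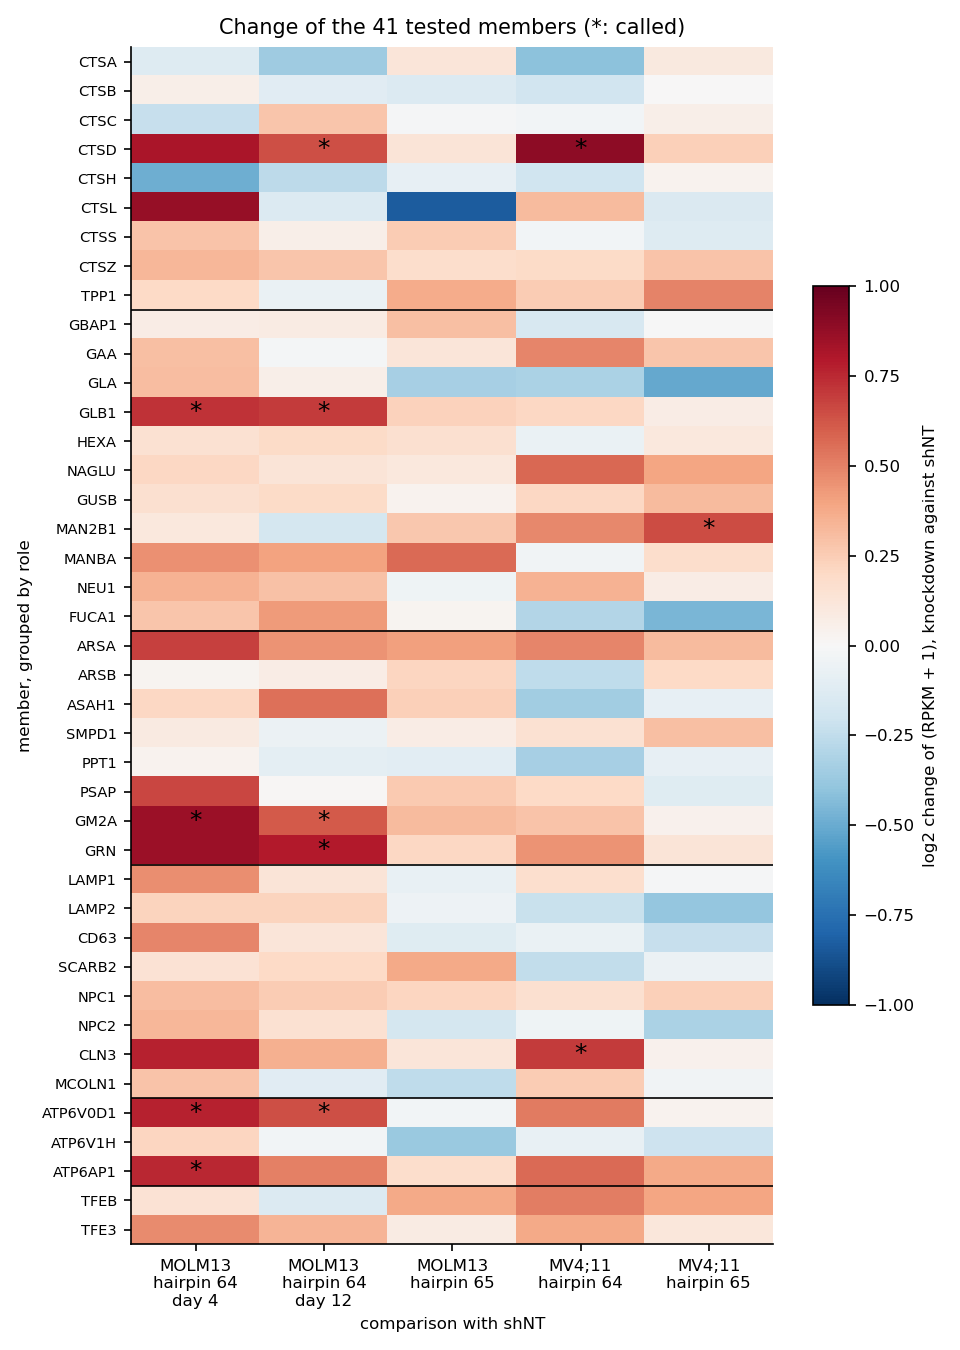
Log2 change of RPKM + 1, knockdown over shNT, for the 41 tested members (rows, by role) in the 5 knockdown comparisons (columns), with a star where the member was called. Stars stand in 4 cells of the day 4 column, 5 of day 12, 2 of MV4;11 hairpin 64, 1 of MV4;11 hairpin 65 and none of MOLM13 hairpin 65.

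Among the proteases, CTSD alone was called. CTSD (ENSG00000117984, chr11:1773982-1785803, minus strand, GRCh37) encodes cathepsin D, the main aspartic protease of lysosomes. On day 12 its level was 128, 118 and 143 RPKM in the shNT libraries and 220.0, 182 and 207 RPKM in the hairpin 64 libraries, so the groups were apart, with means of 129.6 ± 12.3 and 203 ± 19.4 RPKM (SD, n = 3), and it rose 1.57-fold (log2 change 0.64, standard error 0.09, adjusted p = 0.000672, limma). In MV4;11 the values were 113, 124 and 210.0 RPKM in the shNT libraries, 279, 261 and 264 RPKM under hairpin 64 and 212, 157 and 144 RPKM under hairpin 65. All hairpin 64 libraries lay above the shNT libraries and those under hairpin 65 overlapped them. Under hairpin 64 CTSD rose 1.80-fold (log2 change 0.90, standard error 0.22, adjusted p = 0.0441, limma), from 149 ± 53.2 to 268 ± 9.71 RPKM (SD, n = 3). CTSD on day 4 was at 94.7, 107 and 256 RPKM in the shNT libraries and 178, 190.0 and 429 RPKM in the hairpin 64 libraries. The third library of each group was the highest, the groups overlapped, and CTSD was not called there. CTSD in the second MOLM13 set was at 121, 114, 120.0 and 117 RPKM under hairpin 65 and 108, 99.1 and 117 RPKM in shNT libraries. The call on day 12 was lost without the first hairpin 64 library (log2 change 0.58) or without the second shNT library (0.58), as the fold went under 1.5. In MV4;11 it was lost on unadjusted p without the first hairpin 64 library (0.87) or the second shNT library (0.79).

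The other 8 tested proteases were not called in any knockdown comparison. They are CTSB, CTSC, CTSH, CTSL, CTSS and CTSZ, which are cysteine cathepsins, the serine carboxypeptidase CTSA, and the tripeptidyl peptidase TPP1. On day 4 their log2 changes ran from -0.49 for CTSH to 0.87 for CTSL, which became -0.06 and 0.42 without the third library of both groups, and on day 12 from -0.36 for CTSA to 0.28 for CTSC. CTSL, an endopeptidase, had a wide spread between controls: 12.6, 127 and 58.9 RPKM in the second MOLM13 shNT set, against 38.3, 42.6 and 19.6 RPKM in the first set. Its day 4 hairpin 64 libraries were at 52.2, 56.7 and 69.7 RPKM, all above the shNT libraries, and its day 12 libraries at 23.1, 26.9 and 22.1 RPKM under hairpin 64 and 25.1, 27.2 and 27.0 RPKM in shNT, which overlapped. In MV4;11 the 8 ran from -0.41 (CTSA) to 0.32 (CTSL) under hairpin 64, and from -0.14 (CTSL) to 0.50 (TPP1) under hairpin 65. CTSB, CTSS and CTSZ lay inside these bounds in all of these comparisons. Under hairpin 65 in MOLM13 the 9 tested proteases ran from -0.83 (CTSL) to 0.37 (TPP1).

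Of the glycosidases, GLB1 rose at both times in MOLM13 under hairpin 64. GLB1 (ENSG00000170266, chr3:33038101-33138694, minus strand) encodes the acid beta-galactosidase. GLB1 on day 4 was at 22.7, 22.8 and 30.4 RPKM in the shNT libraries and 41.04, 40.4 and 44.6 RPKM in the hairpin 64 libraries. No library of one group overlapped the other, and GLB1 rose 1.66-fold (log2 change 0.72, standard error 0.16, adjusted p = 0.231, limma), from 25.3 ± 4.43 to 42.02 ± 2.28 RPKM (SD, n = 3). GLB1 on day 12 was at 26.6, 27.4 and 27.6 RPKM in the shNT libraries and 44.7, 44.2 and 45.3 RPKM in the hairpin 64 libraries, with a much smaller spread, and rose 1.65-fold (log2 change 0.70, standard error 0.04, adjusted p = 1.23e-05, limma). The unpaired day 4 call was lost without any 1 library other than the third of shNT, with log2 changes from 0.65 to 0.75. In MV4;11 GLB1 was at 37.8, 37.5 and 30.8 RPKM in the shNT libraries, 39.3, 42.1 and 41.3 RPKM under hairpin 64 and 36.0, 37.9 and 37.7 RPKM under hairpin 65, and the log2 changes of 0.21 and 0.08 were not called. GLB1 in the second MOLM13 set was at 33.5, 28.6, 26.7 and 28.6 RPKM under hairpin 65 and 25.1, 28.7 and 21.0 RPKM in shNT libraries, groups that overlapped.

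MAN2B1 (ENSG00000104774, chr19:12757325-12777556, minus strand), a lysosomal alpha-mannosidase, was called in MV4;11 under hairpin 65. Its MV4;11 levels were 69.6, 77.3 and 110.5 RPKM in the shNT libraries, 111, 114 and 128 RPKM under hairpin 64 and 148, 124 and 127 RPKM under hairpin 65. The groups were apart for both hairpins, and under hairpin 65 MAN2B1 rose 1.55-fold from 85.8 ± 21.8 to 133 ± 13.1 RPKM (SD, n = 3, log2 change 0.65, standard error 0.18, adjusted p = 0.103, limma). The call was lost without any 1 of the libraries other than the third of shNT, at log2 changes from 0.52 to 0.70. MAN2B1 on day 4 was at 123, 131 and 259 RPKM in the shNT libraries and 135, 144 and 265 RPKM in the hairpin 64 libraries, which overlapped. MAN2B1 on day 12 was at 101, 106 and 104 RPKM in the shNT libraries and 92.5, 98.1 and 85.5 RPKM in the hairpin 64 libraries, so all hairpin 64 libraries lay below the shNT libraries (log2 change -0.17, not called). MAN2B1 in the second MOLM13 set was at 159, 115, 117 and 118 RPKM under hairpin 65 and 104, 125 and 87.4 RPKM in shNT libraries, with the first hairpin 65 library far above the rest of its group.

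The remaining 9 glycosidase entries, GAA, GLA, HEXA, NAGLU, GUSB, MANBA, NEU1, FUCA1 and GBAP1, were called in no knockdown comparison. They cut glycogen (GAA), alpha-galactosyl lipids (GLA), the GM2 ganglioside (HEXA), heparan sulfate (NAGLU), glucuronides (GUSB), beta-mannosides (MANBA), sialic acids (NEU1) and fucosides (FUCA1). GBAP1 is a transcribed pseudogene with a near-identical copy, so reads may be split and its values are uncertain. On day 4 the uncalled glycosidases lay between 0.07 (GBAP1) and 0.46 (MANBA) on the log2 scale, all above 0. On day 12 they lay between -0.17 (MAN2B1) and 0.43 (FUCA1), and under hairpin 64 in MV4;11 between -0.32 (GLA) and 0.58 (NAGLU). GLA was on the negative side in 3 comparisons, at -0.32 and -0.51 in MV4;11 under hairpins 64 and 65 and at -0.33 under hairpin 65 in MOLM13. Its MV4;11 levels were 67.2, 63.5 and 59.6 RPKM in the shNT libraries, 53.8, 53.5 and 45.0 RPKM under hairpin 64 and 41.3, 46.1 and 45.0 RPKM under hairpin 65, so both knockdown groups were below shNT.

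The sulfatases, lipid enzymes and activators had the highest role median on day 12 among the enzymes, a log2 change of 0.26, and 2 of their 8 members were called. GRN (ENSG00000030582, chr17:42422614-42430474, plus strand) was the member with the lowest p on day 12. Its level there was 261, 268 and 265 RPKM in the shNT libraries and 461, 450.0 and 468 RPKM in the hairpin 64 libraries, tight in both groups and far apart, and it rose 1.74-fold from 265 ± 3.71 to 459.7 ± 9.01 RPKM (SD, n = 3, log2 change 0.79, standard error 0.04, adjusted p = 7.88e-06, limma). GRN on day 4 was at 196, 208 and 372 RPKM in the shNT libraries and 352, 364 and 699.5 RPKM in the hairpin 64 libraries. These overlapped because of the third shNT library, and the unpaired test did not call GRN on day 4 (log2 change 0.85, unadjusted p = 0.058, limma). In MV4;11 GRN was at 148, 160.1 and 273 RPKM in the shNT libraries, 251, 253 and 260.1 RPKM under hairpin 64 and 246, 195 and 177 RPKM under hairpin 65, without a call. GRN in the second MOLM13 set was at 224, 229, 239.7 and 258 RPKM under hairpin 65 and 218, 245 and 163 RPKM in shNT libraries, which overlapped.

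GM2A (ENSG00000196743, chr5:150591711-150650001, plus strand), the activator protein that presents GM2 ganglioside to hexosaminidase, rose at both times in MOLM13 under hairpin 64. GM2A on day 4 was at 4.26, 4.84 and 5.43 RPKM in the shNT libraries and 8.01, 10.1 and 10.7 RPKM in the hairpin 64 libraries. The groups were apart and the mean rose 1.98-fold from 4.85 ± 0.584 to 9.59 ± 1.40 RPKM (SD, n = 3, log2 change 0.85, standard error 0.16, adjusted p = 0.185, limma), the largest ratio of the called members on day 4. This call held without any 1 library. On day 12 GM2A was at 4.86, 5.18 and 5.39 RPKM in the shNT libraries and 9.16, 8.36 and 7.75 RPKM in the hairpin 64 libraries, again apart, and rose 1.64-fold (log2 change 0.62, standard error 0.06, adjusted p = 0.000164, limma). That call was lost when the first hairpin 64 library (log2 change 0.56) or the first shNT library (0.58) was left out, as the fold went under 1.5. GM2A in MV4;11 was at 8.64, 8.92 and 9.24 RPKM in the shNT libraries, 10.9, 11.4 and 10.9 RPKM under hairpin 64 and 9.29, 9.13 and 9.28 RPKM under hairpin 65. These shNT libraries already stood near the level of the MOLM13 knockdown libraries, and neither hairpin was called. GM2A in the second MOLM13 set was at 5.51, 5.58, 7.93 and 7.82 RPKM under hairpin 65 and 5.06, 7.30 and 3.57 RPKM in shNT libraries, which overlapped.

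The other 6 members of this role were ARSA and ARSB, the arylsulfatases for sulfatide and for dermatan sulfate, ASAH1 and SMPD1, the acid ceramidase and sphingomyelinase, PPT1, which removes palmitate from proteins, and PSAP. None was called in the main unpaired fit of any knockdown comparison. ARSA was at 12.7, 13.4 and 21.7 RPKM in the day 4 shNT and 24.3, 22.8 and 29.9 RPKM in the day 4 hairpin 64 libraries, all of the latter higher. ASAH1 had a log2 change of 0.55 on day 12, from 50.6 ± 4.70 to 74.6 ± 5.28 RPKM (SD, n = 3, adjusted p = 0.000745, limma), which is under the 1.5-fold limit. In MV4;11 under hairpin 64 its log2 change was -0.35, the lowest of the role. PPT1 had the lowest change of the role on day 12 at -0.10.

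Of the 8 membrane and cholesterol transport proteins, only CLN3 was called. CLN3 (ENSG00000188603, chr16:28485432-28506896, minus strand) encodes a lysosomal membrane protein lost in juvenile neuronal ceroid lipofuscinosis. CLN3 in MV4;11 was at 4.80, 5.67 and 7.70 RPKM in the shNT libraries, 10.8, 10.5 and 9.63 RPKM under hairpin 64 and 6.82, 6.00 and 5.67 RPKM under hairpin 65. The hairpin 64 libraries lay above all others, and CLN3 rose 1.70-fold from 6.06 ± 1.48 to 10.3 ± 0.616 RPKM (SD, n = 3, log2 change 0.70, standard error 0.15, adjusted p = 0.0372, limma), while hairpin 65 overlapped shNT. Without the first shNT library the log2 change was 0.57 and the fold missed the limit. CLN3 on day 4 was at 5.61, 6.19 and 9.89 RPKM in the shNT libraries and 9.47, 11.0 and 19.4 RPKM in the hairpin 64 libraries, where 1 shNT library overlapped. CLN3 on day 12 was at 5.54, 5.39 and 5.95 RPKM in the shNT libraries and 7.31, 7.60 and 7.51 RPKM in the hairpin 64 libraries, which were apart at a log2 change of 0.36 and an adjusted p of 0.00052 by limma, under the fold limit. CLN3 in the second MOLM13 set was at 6.30, 6.52, 8.18 and 6.96 RPKM under hairpin 65 and 6.29, 5.41 and 7.34 RPKM in shNT libraries.

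The other 7 were the glycoproteins LAMP1 and LAMP2 that line the lysosomal membrane, CD63, SCARB2, a sorting receptor, NPC1 and NPC2, which export cholesterol, and the calcium channel MCOLN1. On day 4 the uncalled members of this role lay between 0.14 (SCARB2) and 0.77 (CLN3) on the log2 scale, on day 12 between -0.11 (MCOLN1) and 0.36 (CLN3), under hairpin 64 in MV4;11 between -0.24 (SCARB2) and 0.26 (MCOLN1), and under hairpin 65 in MV4;11 between -0.38 (LAMP2) and 0.24 (NPC1). Under hairpin 65 in MOLM13 they lay between -0.25 (MCOLN1) and 0.38 (SCARB2). The role median was 0.32 on day 4 and 0.18 on day 12.

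The proton pump had the largest role medians under hairpin 64, a log2 change of 0.75 on day 4, 0.50 on day 12 and 0.52 in MV4;11, over only 3 members and carried by 2 of them. The 12 other pump subunits tested had medians of 0.23, 0.20 and -0.11, with 7 of the 12 below 0 in MV4;11. ATP6V0D1 (ENSG00000159720, chr16:67471917-67515084, minus strand) encodes a subunit of the membrane sector of the vacuolar pump. ATP6V0D1 on day 4 was at 15.7, 16.7 and 18.4 RPKM in the shNT libraries and 27.1, 26.8 and 35.1 RPKM in the hairpin 64 libraries. The groups were apart and ATP6V0D1 rose 1.75-fold (log2 change 0.77, standard error 0.15, adjusted p = 0.205, limma). This call was lost without the first (log2 change 0.72) or the second shNT library (0.76). ATP6V0D1 on day 12 was at 13.7, 13.2 and 13.2 RPKM in the shNT libraries and 20.7, 21.6 and 22.2 RPKM in the hairpin 64 libraries and rose 1.61-fold (log2 change 0.65, standard error 0.04, adjusted p = 2.5e-05, limma). ATP6V0D1 in MV4;11 was at 18.0, 19.9 and 23.2 RPKM in the shNT libraries, 28.9, 30.2 and 29.2 RPKM under hairpin 64 and 21.5, 19.7 and 21.3 RPKM under hairpin 65. The hairpin 64 libraries were above all others at a log2 change of 0.52 (unadjusted p = 0.0022, limma), without a call. ATP6V0D1 in the second MOLM13 set was at 12.3, 13.1, 15.8 and 17.6 RPKM under hairpin 65 and 9.78, 18.1 and 18.2 RPKM in shNT libraries.

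ATP6AP1 (ENSG00000071553, chrX:153656979-153664862, plus strand), an accessory subunit of the same pump, rose 1.69-fold on day 4 (log2 change 0.75, standard error 0.20, adjusted p = 0.291, limma). ATP6AP1 on day 4 was at 43.0, 47.4 and 64.28 RPKM in the shNT libraries and 77.2, 82.2 and 101 RPKM in the hairpin 64 libraries, without overlap. This call was lost without any 1 library other than the third of shNT, at log2 changes from 0.64 to 0.83. ATP6AP1 on day 12 was at 38.4, 40.6 and 40.8 RPKM in the shNT libraries and 56.5, 55.4 and 58.8 RPKM in the hairpin 64 libraries, apart at a log2 change of 0.50, under the 1.5-fold limit. ATP6AP1 in MV4;11 was at 53.7, 57.9 and 74.4 RPKM in the shNT libraries, 94.9, 91.4 and 88.0 RPKM under hairpin 64 and 89.0, 79.7 and 72.4 RPKM under hairpin 65, and neither hairpin was called. ATP6AP1 in the second MOLM13 set was at 65.3, 49.2, 45.1 and 49.5 RPKM under hairpin 65 and 42.4, 46.8 and 48.2 RPKM in shNT libraries, which overlapped. ATP6V1H, a subunit of the cytosolic sector, went with neither: its log2 change was 0.22 on day 4, -0.03 on day 12 and -0.08 under hairpin 64 in MV4;11, none of them called.

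The 2 transcription factors were expressed at a lower level and not called. TFE3 had log2 changes of 0.47 on day 4, 0.34 on day 12 (adjusted p = 0.00344, limma), 0.38 and 0.11 in MV4;11 under hairpins 64 and 65, and 0.08 under hairpin 65 in MOLM13. TFEB in MV4;11 was at 3.83, 3.33 and 5.45 RPKM in the shNT libraries, 6.503, 6.47 and 6.01 RPKM under hairpin 64 and 6.51, 5.08 and 5.66 RPKM under hairpin 65, with the hairpin 64 libraries apart from shNT (log2 change 0.51, adjusted p = 0.0718, limma). On day 12 it was on the other side of 0, at -0.13.

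**Figure D2:**
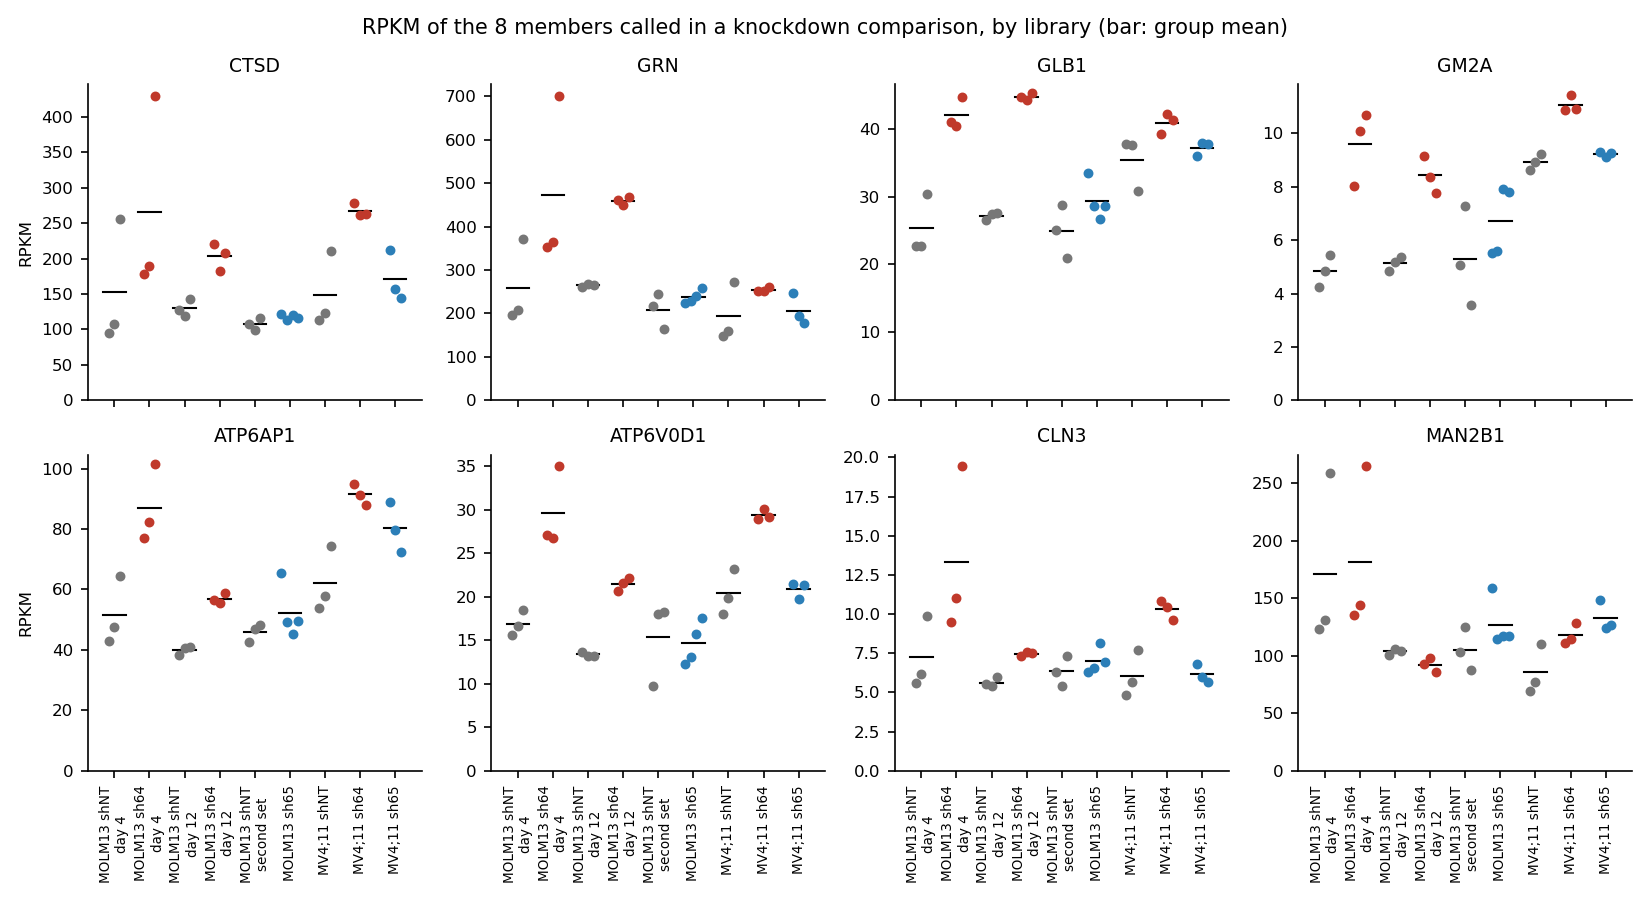
RPKM of the 8 members called in at least 1 knockdown comparison, 1 panel a gene, with a point for each library in the 9 groups and a bar at the group mean; grey is shNT, red hairpin 64 and blue hairpin 65. GRN and GLB1 on day 12 show tight groups without overlap, and the third library of both day 4 groups stands high for CTSD, GRN and CLN3.

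Because the third libraries of both day 4 groups stood high together, the same-numbered libraries were also compared as pairs. Deviations from the group means correlated within each number at 0.80 to 0.88 on day 4, and in no other comparison was every such correlation above 0.1. Libraries of unlike number also correlated on day 4, at up to 0.744, so pairing by number was not established. With the replicate number as a block, 9 members rose on day 4 (3.81% of all genes rose), namely the 4 called before and ARSA, CLN3, CTSD, GRN and PSAP. With the third library of both groups left out, the same 9 rose (4.57% of all genes), an alternative chosen after seeing the data. All 9 passed an adjusted p of 0.05 over all genes in both of these fits by limma. Within the pairs CTSD was 1.88, 1.77 and 1.67 times its shNT partner, GRN 1.80, 1.75 and 1.88 times, and PSAP 1.64, 1.56 and 1.59 times. CLN3 was 1.69, 1.78 and 1.96 times its partner and ARSA 1.91, 1.71 and 1.38 times. In each of these genes all pairs moved one way, which the blocked test favours, although the unpaired groups of CTSD, GRN, PSAP and CLN3 overlapped. The blocked log2 changes and standard errors were 0.82 and 0.07 for CTSD, 0.85 and 0.07 for GRN, 0.67 and 0.07 for PSAP, 0.69 and 0.10 for ARSA and 0.77 and 0.08 for CLN3. The hairpin 64 library was above its partner in all pairs for 33 of 41 members, where 32.2% of all genes tested were.

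**Figure D3:**
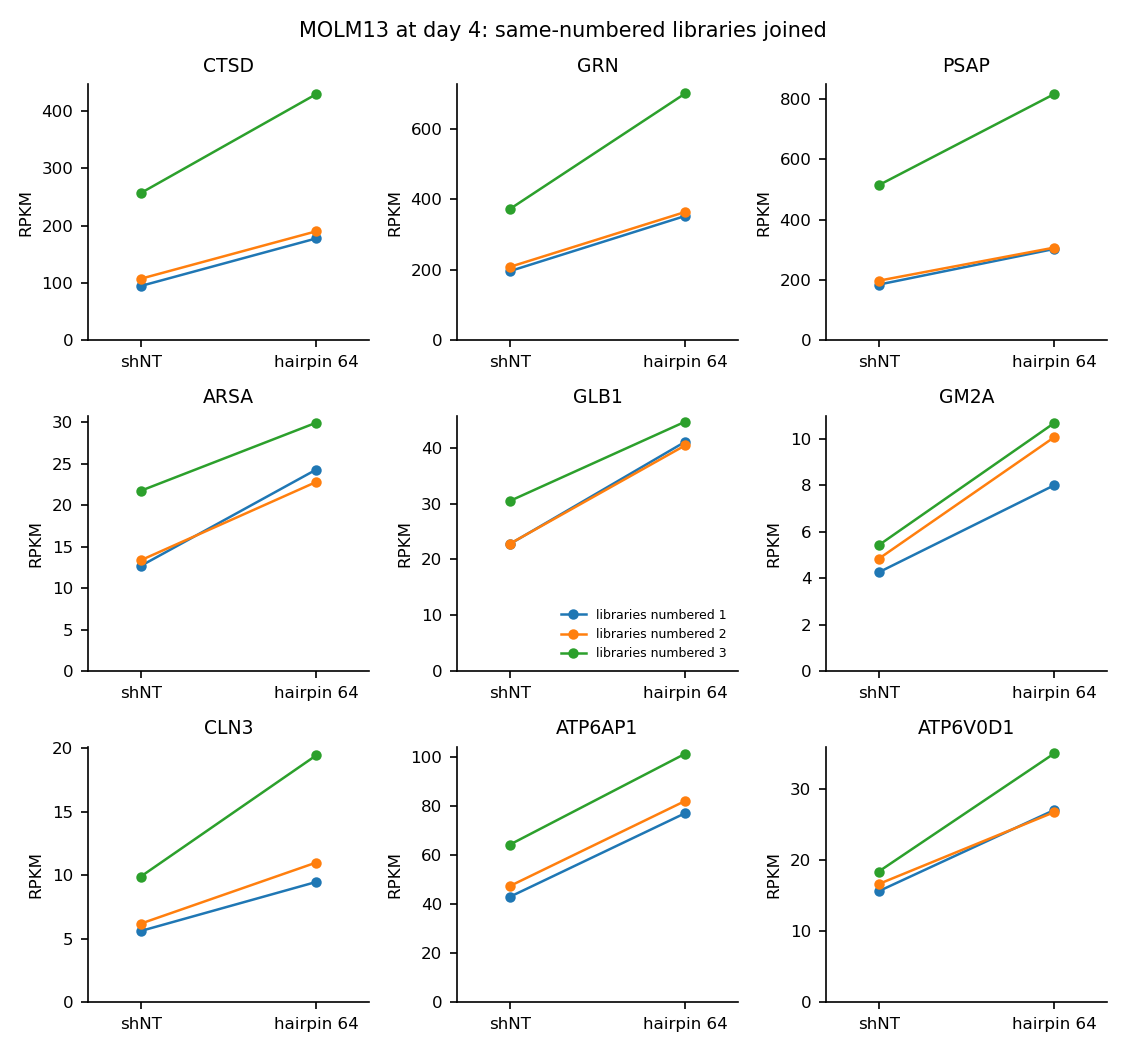
RPKM on day 4 of the 9 members called with the replicate number as a block, 1 panel a gene, with same-numbered shNT and hairpin 64 libraries joined by a line. Every line goes up, and the third library is the highest of both groups in every panel.

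In MV4;11, leaving out the third shNT library, which stood high for 22 members, raised the calls under hairpin 64 from 2 to 10, while 13.5% of all genes then rose. The 10 were ARSA, ATP6AP1, ATP6V0D1, CLN3, CTSD, GAA, GRN, MAN2B1, NAGLU and TFEB. No other setting tried for this comparison moved the count as far, and the share of all genes moved with it.

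Differences between effects were tested directly. Between the hairpins in MV4;11, without the shared controls, 2 members were higher under hairpin 64 and 0 lower (1.55% and 1.83% of all genes). CTSD was higher by a log2 difference of 0.66 (standard error 0.13, adjusted p = 0.00829, limma), at 268 against 171 RPKM on average, with the groups apart, and CLN3 by 0.66 (standard error 0.08, adjusted p = 0.00108, limma), at 10.3 against 6.17 RPKM. The CTSD call was lost without the third hairpin 65 library (0.55). MBNL1 was also lower under hairpin 64 than under hairpin 65 in this line, and its part in these differences was not tested. Between day 12 and day 4, the effect of hairpin 64 differed by the rule for 0 members, against 0.397% of all genes, and 1 member, CTSL, was under an unadjusted p of 0.05 by limma (difference -1.01, standard error 0.34, unadjusted p = 0.0138), the only tool run.

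Between the lines, the effect of hairpin 64 differed for 1 member, GLA, against 0.653% of all genes. GLA (ENSG00000102393, chrX:100648261-100663000, minus strand) was at 52.2, 49.9 and 43.5 RPKM in the MOLM13 day 4 shNT and 66.7, 60.9 and 53.5 RPKM in the hairpin 64 libraries, all higher. In MV4;11 it was at 67.2, 63.5 and 59.6 RPKM in shNT and 53.8, 53.5 and 45.0 RPKM under hairpin 64, all lower. The difference of the changes was -0.63 (standard error 0.18, unadjusted p = 0.00563, adjusted p = 1.00, limma), which does not pass the adjustment. It was lost without any 1 of 7 of the 12 libraries, with differences from -0.65 to -0.55. For 6 members the difference between lines was under an unadjusted p of 0.05 by limma, each of them negative. The share of all genes under that p was not counted. The median difference over all members was -0.25 against 0.02 for all genes.

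Splicing was given as the percent of junction reads that support a form. The junction table held 181 events in 35 of the members, out of 100814 events in all, and 7 members had none. An event was called at an unadjusted p of at most 0.01 by limma with a difference over 10 percentage points. By this rule 3 of 32 tested members had a called event on day 4, against 7.72% of all genes, and 5 of 31 on day 12, against 10.1%. In MOLM13 under hairpin 65 there were 4 of 32 (6.26%), in MV4;11 under hairpin 64 there were 3 of 32 (7.87%) and under hairpin 65 there was 1 of 32 (4.74%). CTSC was the member called in all 5 comparisons.

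CTSC encodes cathepsin C, the dipeptidyl peptidase that activates granule serine proteases. Its event is an exon of 85 bases on the minus strand at chr11:88061280-88061364 (GRCh37), inside the intron that a skipping junction spans from the exon edge at 88068105 to the next exon edge at 88045722. From the alternative exon a further junction leads to an exon at 88059611. The annotation holds 11 transcripts with the alternative exon, of which 8 hold the exon at 88059611 and 2 the exon that the skipping junction joins. The exon and the intron on either side are shown because this event moved in every comparison, with the MBNL-type letters TGCT or TGCC, and CGCT or CGCC, of the transcribed strand in capitals:
CTSC upstream intron, chr11:88061365-88061464: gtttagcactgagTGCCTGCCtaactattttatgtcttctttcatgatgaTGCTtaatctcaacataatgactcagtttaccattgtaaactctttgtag
CTSC alternative exon, chr11:88061280-88061364: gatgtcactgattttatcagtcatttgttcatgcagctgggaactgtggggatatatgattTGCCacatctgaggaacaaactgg
CTSC downstream intron, chr11:88061180-88061279: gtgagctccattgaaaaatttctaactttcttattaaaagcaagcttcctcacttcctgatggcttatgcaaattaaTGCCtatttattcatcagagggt
The upstream 100 bases held 3 such words, and 17.1% of 189562 windows of the same length before internal coding-gene exons held at least as many. The exon held 1 (65.1% of 13926 exons of like length held at least 1) and the downstream 100 bases held 1 (65.8% of windows after such exons). These are matches of letters and not shown to be sites.

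The junction leaving the CTSC exon was less used in every knockdown group. On day 4 it took 36.9, 35.8 and 46.1% in the shNT libraries and 11.4, 10.1 and 20.5% in the hairpin 64 libraries. On day 12 it took 30.9, 32.7 and 34.7% in shNT and 7.23, 6.79 and 6.48% under hairpin 64. No library of one group overlapped the other at either time, and the share fell by 25.6 percentage points on day 4 (standard error 4.38, adjusted p = 0.217, limma) and by 25.9 on day 12 (standard error 1.05, adjusted p = 0.00342, limma).

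In MV4;11 the same junction took 38.9, 44.9 and 41.7% in shNT, 12.8, 17.2 and 18.1% under hairpin 64 and 27.6, 30.7 and 30.5% under hairpin 65. The 3 groups were apart, with hairpin 65 between the other two. The share fell by 25.8 percentage points under hairpin 64 (standard error 2.28, adjusted p = 0.0526, limma) and by 12.3 under hairpin 65 (standard error 1.92, adjusted p = 0.335, limma), where the call was lost without the third shNT library at a difference of -12.3. Set directly against each other, hairpin 64 was lower than hairpin 65 by 13.5 percentage points (standard error 1.84, unadjusted p = 0.00124, adjusted p = 0.198, limma), a test chosen after seeing the data. Under hairpin 65 in MOLM13 it took 23.1, 29.2, 25.4 and 31.3% against 38.2, 36.1 and 45.4% in shNT, again apart, and the means were 27.3 and 39.9%. The event of the cluster with the lowest p there, listed by the skipping junction and turned to inclusion, was at 41.2% against 57.0%, and its call was lost without the first hairpin 65 library (difference -15.4 percentage points), the first (-15.5) or the third (-13.7) shNT library. The junction entering the exon went the same way, at 5.22% against 24.4% on day 4, 7.16% against 33.4% on day 12, 11.1% and 20.0% against 33.7% in MV4;11 and 21.3% against 36.1% under hairpin 65 in MOLM13. The shNT shares of the lines, 41.9% in MV4;11 and 39.9% in the second MOLM13 set, overlapped. CTSC RPKM was not called in any comparison, so the exon use changed without a called change of the gene's level.

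LAMP2 was called on day 12. It encodes a lysosomal membrane glycoprotein made in forms that differ in the last exon, which holds the transmembrane stretch and the short cytosolic tail. LAMP-2A takes part in chaperone-mediated autophagy and LAMP-2B in fusion with autophagosomes. From the shared exon edge at chrX:119575585 on the minus strand (GRCh37) the event sets the junction to the LAMP-2B exon at chrX:119570349-119573148 against that to the LAMP-2A exon at chrX:119560003-119565317. Junctions to any other last exon were not examined. The coding parts of both exons, 137 bases each and 56.2% identical, are shown to let the choice be seen, in capitals after the last 30 bases of intron:
LAMP-2B exon start, chrX:119573012-119573178: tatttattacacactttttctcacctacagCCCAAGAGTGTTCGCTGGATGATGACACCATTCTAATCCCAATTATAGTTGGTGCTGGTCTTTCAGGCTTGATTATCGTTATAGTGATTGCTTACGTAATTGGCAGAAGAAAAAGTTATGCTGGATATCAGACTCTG
LAMP-2A exon start, chrX:119565181-119565347: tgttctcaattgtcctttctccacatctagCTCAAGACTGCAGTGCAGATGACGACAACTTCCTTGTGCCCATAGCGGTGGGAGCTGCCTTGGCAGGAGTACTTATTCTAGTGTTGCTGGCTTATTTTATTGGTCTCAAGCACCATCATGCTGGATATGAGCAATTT

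The LAMP-2B junction took 65.3, 66.9 and 67.6% in the day 12 shNT libraries and 48.2, 48.4 and 46.6% under hairpin 64. The groups were apart by far more than their spread, and the share fell by 18.9 percentage points (standard error 0.86, adjusted p = 0.00472, limma). On day 4 it took 58.6, 58.2 and 47.6% in shNT and 41.04, 42.1 and 32.8% under hairpin 64, also apart, with the third library of both groups lowest. The day 4 difference was not called unpaired (unadjusted p = 0.0181, limma) and was called with the replicate number as a block. In MV4;11 the means were 66.8% in shNT, 58.5% under hairpin 64 and 60.7% under hairpin 65, and in MOLM13 62.0% in shNT and 54.2% under hairpin 65, none of them called. LAMP2 RPKM was not called in any of the comparisons.

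**Figure D4:**
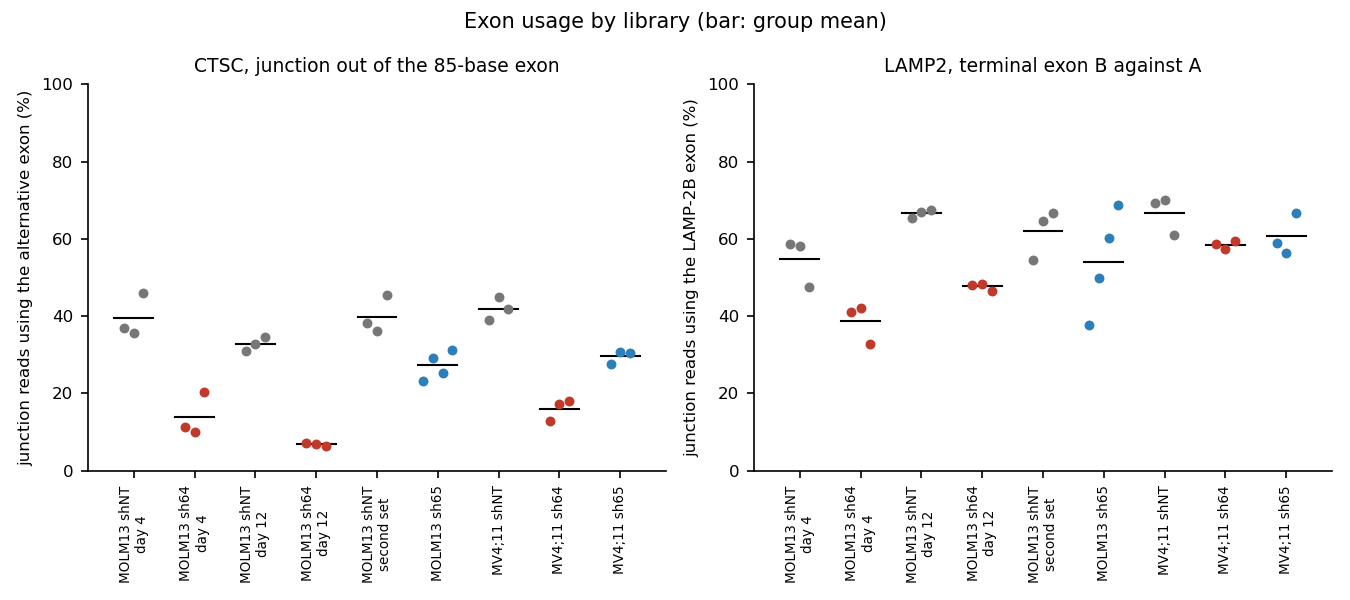
Percent of junction reads, by library, for the junction leaving the 85-base CTSC exon and for the LAMP-2B last exon of LAMP2 in the 9 groups, with a bar at the group mean. For CTSC, red hairpin 64 points lie under 21% and grey shNT points above 30% in every set; for LAMP2 the day 12 groups are the farthest apart for their spread.

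Other called events were found in 1 or 2 comparisons each. MANBA, on day 12, used the annotated junction into its exon edge at chr4:103595227 for 94.7, 91.7 and 94.6% of reads in shNT and for 78.8, 73.4 and 77.9% under hairpin 64 (adjusted p = 0.0461, limma). The rest of those reads came from a junction starting in the intron at 103600768. GAA, in an exon at chr17:78075610-78075689, fell from 70.4, 70.0 and 73.0% in shNT to 54.2, 59.2 and 59.4% on day 12 (adjusted p = 0.0776, limma), and by another junction of the same exon from 96.4, 81.7 and 85.4% to 65.9, 68.6 and 70.0% under hairpin 64 in MV4;11 (adjusted p = 0.338, limma). The day 12 and MV4;11 groups were each apart, and the MV4;11 call was lost without any hairpin 64 library or the third shNT library, at -20.9 to -18.6 percentage points.

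GUSB, on day 12, used the alternative 3′ site at chr7:65440058 for 63.7, 61.9 and 63.0% in shNT and for 48.3, 52.2 and 56.9% under hairpin 64 (adjusted p = 0.228, limma), a call lost without any 1 library except the third of hairpin 64, at -10.9 to -8.32 percentage points. On day 4 another event of GUSB, a retained intron ending at 65439429, rose from 9.06, 6.33 and 4.04% to 21.3, 19.4 and 22.0% (adjusted p = 0.0813, limma), while on day 12 it was at 12.7% in shNT and 13.4% under hairpin 64. In MV4;11 under hairpin 64, the promoter of CTSL at chr9:90341223 rose from 11.9, 7.5 and 12.6% to 20.5, 22.5 and 19.9% of junction reads (adjusted p = 0.202, limma), a call lost without any hairpin 64 library or the second shNT library, at differences of 8.66 to 10.8 percentage points.

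Under hairpin 65 in MOLM13, ATP6AP1 used a junction between 153657520 and 153660176 on chromosome X for 87.0, 87.9, 80.8 and 84.9% of reads against 97.5, 96.0 and 94.3% in shNT (adjusted p = 0.253, limma), a call lost without the third hairpin 65 (difference -9.33 percentage points) or first shNT library (-9.99). The shNT libraries of day 4 took 81.3, 87.9 and 64.0% at the same junction, so the control sets of this line differed from each other by as much. A retained intron of NAGLU was at 10.4, 17.2, 27.7 and 23.1% under hairpin 65 and at 0 in all 3 shNT libraries of that set. The other MOLM13 shNT libraries were at 23.9, 19.6 and 0% in the day 4 set and 23.3, 0 and 21.2% on day 12 for the same intron, so they overlapped the hairpin 65 libraries. Its call was lost without hairpin 65 library 2 or 4 or any shNT library, at 18.4 to 20.4 percentage points. GBAP1 introns moved both ways. A retained intron was at 57.1, 60.0 and 60.0% in day 4 shNT and at 0 in 2 hairpin 64 libraries, the third not being measured, while in the second set an intron of the same pair of exons was at 49.1, 52.4, 46.3 and 62.5% under hairpin 65 against 20.0 and 0% in the 2 measured shNT libraries, a call lost without the first (43.7 percentage points) or second (42.6) hairpin 65 library. A second GBAP1 intron was at 28.8% against 0%, lost without the first hairpin 65 library (28.1 percentage points). The near-identical copy makes the GBAP1 values uncertain.

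The promoters of the members were searched for the CLEAR-type letters TCACGTGA, to which TFEB and TFE3 are known to bind, and for the E-box core CACGTG within it, on both strands. RefSeq promoter windows (GRCh38.p14, 250 bases before to 50 after the start) were matched for 30 of the 42 members. TCACGTGA was in 6 of the 30, which is 20.0%, against 1.18% of 27305 genes and 0.98% of 35116 promoters. The 6 were ATP6V0D1, CLN3, CTSA, GAA, LAMP1 and MCOLN1. CACGTG was in 10 of the 30, or 33.3%, against 8.77% of genes and 7.26% of promoters, the further members being ARSB, CD63, CTSD and NEU1. Windows are shown for the called members that held either, with the match in capitals:
ATP6V0D1 promoter, minus strand, chr16:67481199-67481228: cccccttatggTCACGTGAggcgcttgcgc
CLN3 promoter, minus strand, chr16:28492058-28492087: cgcgggtgctgTCACGTGAtccgacaaacg
CTSD promoter, minus strand, chr11:1763957-1763986: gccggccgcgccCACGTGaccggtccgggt
The match began at -60 of the start in ATP6V0D1, at -2 or 6 from the 2 annotated starts of CLN3 and at -47 in CTSD. Of the called members, ATP6AP1, GLB1, GM2A, GRN and MAN2B1 held neither word in this window. A match is a description of letters only.

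A wider list of lysosomal genes, 74 with a row and the members not among them, gave both directions. Of its tested genes 5 rose and 2 fell of 68 on day 4 (1.33% and 1.09% of all genes) and 10 rose and 2 fell of 66 on day 12 (3.27% and 2.25%). In MV4;11, 5 rose and 4 fell of 69 under hairpin 64 (3.89% and 2.62%) and 2 rose and 4 fell of 68 under hairpin 65 (1.78% and 1.85%). Under hairpin 65 in MOLM13, 3 rose and 1 fell of 65 (1.76% and 1.48%). Its median log2 changes were 0.21, 0.18, 0.06, 0.09 and 0.10 in that order, beside 0.00, 0.04, 0.01, 0.06 and 0.05 over all genes. LYZ, the secreted lysozyme, rose in MOLM13 under hairpin 64, to 3744 from 1318 RPKM on day 4 and to 3771 from 801 on day 12. In MV4;11 it fell, to 1404 and 680 RPKM under hairpins 64 and 65 from 2313 RPKM. Under hairpin 65 in MOLM13 LYZ was at 683.5 against 1557 RPKM (shNT SD 1315), with overlapping groups and no call. The effect of hairpin 64 on LYZ differed between MV4;11 and MOLM13 by -2.22 on the log2 scale, lower in MV4;11 (standard error 0.27, adjusted p = 0.0482 by limma in the interaction test). The cysteine protease CTSF rose on day 12 (7.29 against 1.63 RPKM) and under hairpin 64 in MV4;11 (2.05 against 1.04).

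Of the 12 other proton pump subunits tested, 2 were among the genes named here, which were called in 2 or more comparisons. ATP6V0C, of the membrane ring, rose from 43.2 to 66.1 RPKM on day 4 and from 23.5 to 52.2 under hairpin 64 in MV4;11 (adjusted p = 0.197 and 0.0599, limma). Its MV4;11 shNT libraries had an SD of 14.75 RPKM. ATP6V1G1, a stalk subunit, rose from 32.6 to 53.2 on day 4 and from 38.5 to 61.2 RPKM on day 12. GALNS, a sulfatase, rose in the 3 hairpin 64 comparisons, from 5.82 to 9.49, from 4.85 to 7.95 and from 3.26 to 5.75 RPKM on day 4, day 12 and in MV4;11. The acid phosphatase ACP2 rose in MV4;11 from 2.61 to 4.73 under hairpin 64 and 4.74 under hairpin 65. Lower were AGA, which cleaves asparagine-linked glycans (9.25 to 5.06 RPKM on day 4, and 8.19 to 3.91 and 5.03 in MV4;11), and GGH, which trims folate (35.3 to 17.2 under hairpin 65 in MOLM13 and 11.6 to 6.49 and 6.19 in MV4;11). SORT1, a sorting receptor, fell on day 12 (6.97 to 3.97) and rose under hairpin 65 in MOLM13 (4.61 to 9.07). Of 15 autophagy genes, 0 rose in any comparison, where 1.33% to 3.89% of all genes rose under the knockdowns. Only on day 12 did 1 fall, where 2.25% of all genes fell. With 15 genes these counts cannot be told apart from those shares. The same 3 MV4;11 shNT libraries stand behind both hairpins' values.

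The shNT libraries also allowed the lines to be compared, the second MOLM13 set against MV4;11. In MV4;11, 6 members were higher and 2 lower, against 6.61% and 7.62% of all genes. The largest differences were for FUCA1, 69.8, 68.9 and 49.2 RPKM in MV4;11 against 12.8, 33.2 and 36.2 in MOLM13 (log2 difference 1.27, adjusted p = 0.0366, limma), ARSB, 15.5, 15.3 and 11.9 against 4.12, 7.41 and 6.76 (1.13, adjusted p = 0.0106), and ASAH1, 55.0, 52.6 and 42.6 against 20.4, 33.2 and 20.1 RPKM (1.03, adjusted p = 0.0161). In each of these no library of the MV4;11 set overlapped the second MOLM13 set. For ASAH1 other MOLM13 shNT libraries did reach the MV4;11 level, at 54.85 RPKM in the third of day 4 and 49.2, 46.7 and 55.8 RPKM on day 12. SCARB2 was at 10.7, 11.0 and 7.42 against 3.11, 5.91 and 4.04 RPKM (1.01), MANBA at 17.7, 15.2 and 12.4 against 8.79, 7.44 and 6.11 RPKM (0.93), and GUSB at 17.1, 15.0 and 17.7 against 36.8, 30.8 and 28.5 RPKM (-0.90, adjusted p = 0.0105, limma). These too were apart, with GUSB the 1 of the 6 named that was lower in MV4;11. PSAP was higher at 383 against 248 RPKM and NAGLU lower at 1.72 against 3.30 RPKM, both called without passing the adjustment. The third day 4 MOLM13 shNT library was at 514 RPKM for PSAP, above every MV4;11 shNT library. None of the members that differed between the lines most was called in a knockdown comparison.

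**Figure D5:**
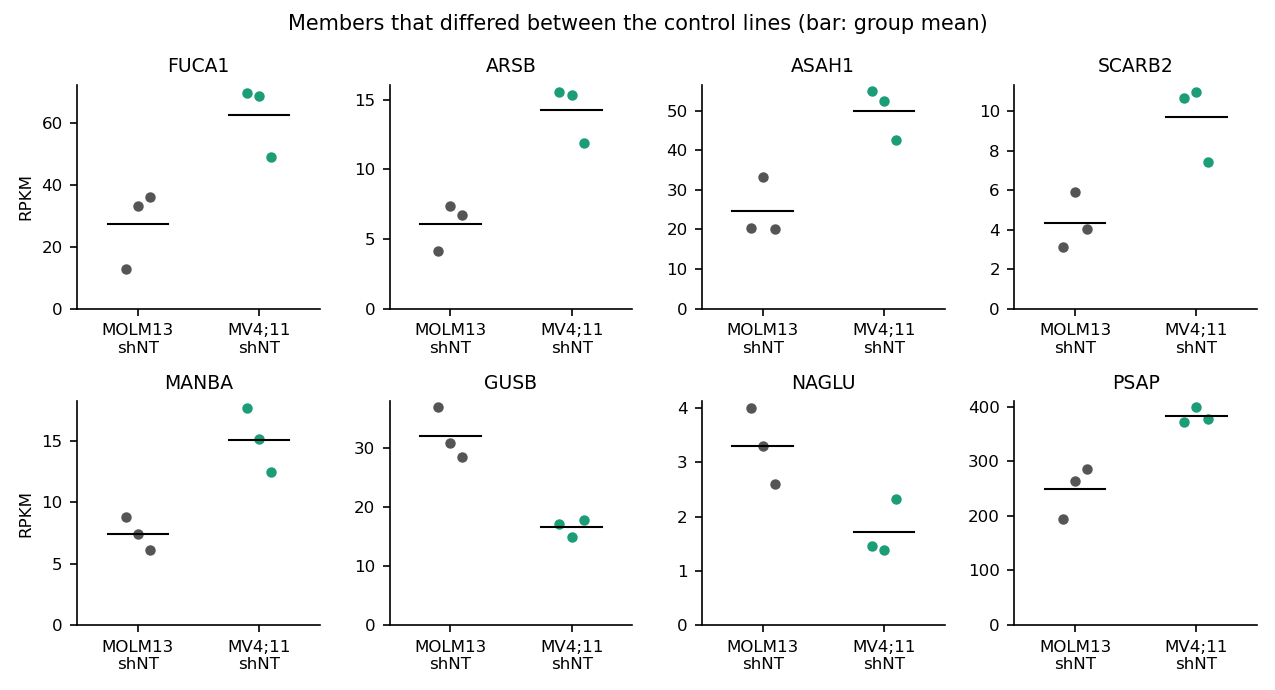
RPKM of the 8 members called between the shNT libraries of MV4;11 and of the second MOLM13 set, 1 panel a gene, a point for each library and a bar at the mean. The MV4;11 points lie above those of MOLM13 for FUCA1, ARSB, ASAH1, SCARB2, MANBA and PSAP and below them for GUSB and NAGLU.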

How the data were processed

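RNA-seq of 28 libraries was examined in 2 deposited tables. The authors aligned reads with STAR to GRCh37 (hg19), and AltAnalyze gave the deposited RPKM values per gene. The deposited PSI values, each a fraction of junction reads for a splicing event, came from MultiPath-PSI. The authors' column of PSI differences was not used. Read totals were not given in the files, so no counting error could be set. Files of 9 groups were mapped from the labels, and the methods describe other sample numbers for some groups than the labels. The shNT columns of the second MOLM13 set carry no replicate number.

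Tests used limma 3.58.1 (R 4.3.3) on log2(RPKM + 1), for each gene whose mean reached 1 RPKM in a compared group, so fold changes of low genes are understated. Calls needed p of at most 0.01 and 1.5-fold, with Benjamini-Hochberg adjusted p over all genes tested (threshold 0.05). PSI was tested with limma where over 50% of libraries per group had a value, at p of at most 0.01 and over 10 percentage points. Events listed by their skipping or spliced junction were turned to 100 minus the percent. Python 3.11.15 with pandas 2.3.3, pysam 0.24.0 and matplotlib 3.10.9 handled tables, sequences and figures. The scripts were tested on simulated data.

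Same-numbered libraries were checked for pairing by the correlation of their deviations from group means. On day 4 these were 0.848, 0.799 and 0.882 for numbers 1, 2 and 3. The highest correlation with an unlike number was 0.744, 0.666 and -0.816. As the third library stood apart in both groups, this check cannot tell whether libraries 1 and 2 were pairs. Pairing was thus not established, and the block is given as an alternative. Elsewhere they were not all over 0.1.

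The members and gene lists were chosen with earlier results of these data known. Values in every library are given for members called in any of 5 knockdown comparisons and for the highest and lowest member by mean RPKM. Of the wider list, genes called in at least 2 comparisons are named, at most 10 by mean absolute log2 change, and 1 of these is not reported here. For the control lines the 6 called members with the largest difference are named, and for splicing 1 event per junction cluster and comparison. Other members singled out in the text were chosen after their values were seen. Alternatives were another pseudocount, no filter on low values, 1 fit over all libraries, adjusted p, a PSI difference over 0.2, a replicate block and leaving out each library.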

Additional observations from a re-analysis of the deposited data

Results flagged for a closer look

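In the only group of 4 libraries, MOLM13 under hairpin 65, 3 of the 42 members had a library far from the rest of its group, all in the first library. They were CTSZ, a cysteine carboxypeptidase, at 63.2 RPKM, MAN2B1 at 159 RPKM and the barely detected LGMN at 0.0135 RPKM, whose other 3 libraries were at the bottom value of the gene. About 1 in 20 groups is set apart in this way by chance.

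In MV4;11, hairpin 64 differed from hairpin 65 for CTSD by a log2 difference of 0.66 and for CLN3 by 0.66, each in a direct limma comparison of the hairpins. GLA was noted because the effect of hairpin 64 differed between MV4;11 and MOLM13 by -0.63 on the log2 scale in the interaction test, with all hairpin 64 libraries above shNT in MOLM13 and below it in MV4;11. The GLA difference did not pass the adjustment for all genes tested.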

How the results depend on the processing

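Among the called values and counts recomputed, none changed direction under the alternatives tried. Without the third library of both day 4 groups, 3 uncalled members did: TFEB went from 0.14 to -0.08, CTSC from -0.23 to 0.01 and PPT1 from 0.03 to -0.02 on the log2 scale. Counts of called members moved as follows. On day 4 the main count of 4 became 7 in 1 fit over all libraries, 0 at an adjusted p under 0.05, 1 to 4 without single libraries and 9 without the third library of both groups. With the replicate number as a block it was 9, and the block raised members with a called splicing event on day 4 from 3 to 5, adding ARSA and LAMP2. On day 4 pairing was not established, and in the other comparisons the libraries share only a number, so the block was not read as pairing. For MOLM13 hairpin 65 the 0 became 1 with a pseudocount of 0.1 (MANBA) and 0 to 3 without single libraries, the 3 being ATP6V1H, CTSL and MANBA without the first shNT library. For hairpin 64 in MV4;11 the 2 became 0 with no filter on low values and 1 to 10 without single libraries. For hairpin 65 in MV4;11 the 1 became 0 with a pseudocount of 0.1, no filter, 1 fit over all libraries or adjusted p, and 0 to 2 without single libraries. Day 12 gave 3 to 6 without single libraries, the 3 (ATP6V0D1, GLB1 and GRN) without the first hairpin 64 library, and the difference between hairpins in MV4;11 gave 1 with no filter and 1 to 2 without single libraries. The control lines gave 3 with no filter (ARSB, GUSB and MANBA) and 5 to 9 without single libraries. The day interaction gave 0 to 1, with CTSL called without day 4 shNT library 2 or 3, and the line interaction 2 with a pseudocount of 0.1 (GLA and GM2A) and 0 to 3 without single libraries. Leaving libraries out of both interactions was chosen after seeing the data.

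Members with a called splicing event moved on day 4 from 3 to 1 at adjusted p (GBAP1) and 3 to 7 without single libraries. For MOLM13 hairpin 65 the 4 became 1 at a PSI difference over 0.2, 0 at adjusted p and 1 to 4 without single libraries. For hairpin 64 in MV4;11 the 3 became 0 at adjusted p and 1 to 3 without single libraries, and for hairpin 65 the 1 became 0 at a difference over 0.2, 0 at adjusted p and 0 to 3 without single libraries. On day 12 the 5 became 1 at a difference over 0.2 (CTSC) and 3 at adjusted p (CTSC, LAMP2 and MANBA). The cause of these moves was not tested. Depth is not in the files, so its limit on low members such as LGMN and on events at 0 is unknown.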
